A study of Mus musculus with 81 samples.

Results

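Ms4a4a, Ms4a4b, Ms4a4c, Ms4a6b, Ms4a6c, Ms4a6d and Ms4a7 were followed through all 81 libraries of the series. These 7 genes were chosen by symbol as the Ms4a4 genes, Ms4a6 genes and Ms4a7 of the myeloid Ms4a cluster. They are 7 of the 54079 genes listed in every library, where another 12 genes also carry a name that starts with Ms4a. On mouse build GRCm38 the 7 genes lie within 283.811 kb of chromosome 19, from position 11321039 to 11604849, inside a 678.559 kb stretch that holds all 19 Ms4a genes. From low to high coordinate the order is Ms4a7 (chr19:11321039-11336146, minus strand), Ms4a4a (chr19:11375523-11392790), Ms4a4c (chr19:11404770-11427246), Ms4a4b (chr19:11443553-11467055), Ms4a6c (chr19:11469366-11482192), Ms4a6b (chr19:11516512-11531256) and Ms4a6d (chr19:11586604-11604849, minus strand), with the middle 5 on the plus strand.

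MS4A proteins are small surface proteins that cross the membrane several times and often sit beside signalling receptors. The best known members are CD20 on B cells, encoded by Ms4a1, and the β chain of the high-affinity IgE receptor on mast cells, encoded by Ms4a2. The Ms4a4, Ms4a6 and Ms4a7 genes are the myeloid branch of the family and are used by monocytes, macrophages and microglia. The human MS4A4A and MS4A6A locus is known for its genetic link to soluble TREM2 levels.

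The comparison throughout was between WT mice, which carry floxed H3f3a and H3f3b alleles (H3f3a fl/fl H3f3b fl/fl) with no cre, and cKO mice, which carry the same alleles with LysM cre/cre. H3f3a and H3f3b both encode the histone variant H3.3. LysM cre is active in macrophages and granulocytes, and as it sits in both Lyz2 copies, loss of Lyz2 went with loss of H3.3 in every cKO sample. Per the study, the mice were derived from a C57BL/6 background and were 8 to 10 weeks old and of both sexes. It lists parent lines of mixed strain origin for the Sting and Mavs KOs, with the Mavs line backcrossed before use. Bone marrow was grown in L929-conditioned medium, a source of M-CSF, to give bone marrow-derived macrophages (BMDMs). A time course sampled 3 WT and 3 cKO cultures on each of days 3, 5 and 7. On day 8, BMDMs were left untreated or given IFNγ for 12 h (3 WT libraries a condition and 2 cKO libraries a condition, with another 2 cKO libraries whose title and library name disagree on IFNγ and which entered no group). Another experiment grew WT and cKO BMDMs with no antibody, an IgG1 control antibody or an antibody that blocks IFNAR1, the type I interferon receptor, with 3 libraries a group. A further one held 3 sets of WT and cKO BMDMs and BMDMs of cKO:StingKO, cKO:MavsKO and cKO:Irf7KO mice, with 3 libraries a group. Peritoneal macrophages came from WT and cKO mice, again with 3 libraries each. Most titles number the libraries of a group as biological replicates, but none says whether they came from separate mice, so the p-values measure the spread between these libraries.

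Libraries held between 3614967 and 45581528 counts on genes (median 18333377). H3f3a stood at 33.6 to 93.7 counts per 1000000 (CPM, scaled by edgeR's TMM factors) in WT libraries and at 1.2 to 15.3 in all cKO and double KO libraries, while Lyz2 ran from 4463 to 76296 CPM in WT and from 1.69 to 81.8 in cKO and double KO libraries. H3f3b was reduced less. Outside the antibody experiment it covered 181 to 535 CPM in WT and 71.8 to 360 in cKO and double KO libraries, which overlap. Within the antibody experiment it covered 295 to 468 CPM in WT and 16.7 to 67.7 in cKO libraries. Tmem173, the gene of STING, was at 5.01 to 6.10 CPM in cKO:StingKO against 68.2 to 91.6 in the cKO sets, and Irf7 at 98.2 to 112 CPM in cKO:Irf7KO against 248 to 470. Those Irf7 levels lay within the range of the WT sets (36.6 to 155 CPM), so reads of the gene were still counted there. Mavs in cKO:MavsKO (37.1 to 37.8 CPM) lay within the range of the cKO sets (36.0 to 51.6), so the counts did not check that label. Sets 1 and 3 cannot be taken as independent of each other. Over 11864 genes, the deviations of same-numbered libraries of these sets correlated at 0.65, 0.65 and 0.19 for WT and at 0.47, 0.11 and 0.39 for cKO, whereas same-numbered libraries of set 2 and another set stayed between -0.30 and 0.05. Different-numbered libraries of sets 1 and 3 ran from -0.64 to 0.33 in WT and from -0.40 to 0.13 in cKO. The weakest same-numbered values, 0.19 and 0.11, thus did not stand out. Different-numbered libraries of set 2 and another set reached 0.29. Same-numbered libraries of sets 1 and 3 still differed beyond sampling noise (chi-square per degree of freedom 13.3 to 43.2), and the labels do not say whether the sets share mice. The cKO IFNγ replicate 1 library was the shallowest of all, with 57.1% of its reads unmapped (12.6% to 18.4% in the other day 8 libraries) and a TMM factor of 0.459 (0.892 to 1.25 in the others placed in a group), which raises its CPM, and Ms4a6d was at 71.7 CPM in it against 397 in replicate 2.

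The promoters of the neighbours Ms4a4b and Ms4a4c, and those of Ms4a6b and Ms4a6c, resembled each other, and they are shown because these 4 genes carried most of the changes below. The windows are the 250 bases upstream of the RefSeq start on GRCm38.p6, plus strand, 5′ to 3′, and capitals mark the longest run that both genes of a pair share (20 bases for Ms4a4b and Ms4a4c, 48 bases for Ms4a6b and Ms4a6c). The windows lie at chr19:11443308-11443557 for Ms4a4b, chr19:11407411-11407660 for Ms4a4c, chr19:11518309-11518558 for Ms4a6b and chr19:11469118-11469367 for Ms4a6c.
Ms4a4b: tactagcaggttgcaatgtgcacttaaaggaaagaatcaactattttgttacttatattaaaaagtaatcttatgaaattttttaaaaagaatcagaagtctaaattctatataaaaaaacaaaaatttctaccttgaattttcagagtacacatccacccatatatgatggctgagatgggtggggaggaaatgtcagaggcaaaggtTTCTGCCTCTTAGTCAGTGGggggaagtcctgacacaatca
Ms4a4c: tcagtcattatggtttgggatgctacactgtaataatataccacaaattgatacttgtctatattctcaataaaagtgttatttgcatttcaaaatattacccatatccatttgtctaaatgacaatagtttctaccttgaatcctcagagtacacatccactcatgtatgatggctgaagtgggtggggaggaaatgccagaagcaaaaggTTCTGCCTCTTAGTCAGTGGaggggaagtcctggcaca
Ms4a6b: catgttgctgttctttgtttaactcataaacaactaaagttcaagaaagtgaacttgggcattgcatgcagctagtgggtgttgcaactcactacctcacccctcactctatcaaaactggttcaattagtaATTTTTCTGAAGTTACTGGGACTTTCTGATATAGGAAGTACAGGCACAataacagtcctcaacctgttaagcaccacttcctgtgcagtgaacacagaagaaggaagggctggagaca
Ms4a6c: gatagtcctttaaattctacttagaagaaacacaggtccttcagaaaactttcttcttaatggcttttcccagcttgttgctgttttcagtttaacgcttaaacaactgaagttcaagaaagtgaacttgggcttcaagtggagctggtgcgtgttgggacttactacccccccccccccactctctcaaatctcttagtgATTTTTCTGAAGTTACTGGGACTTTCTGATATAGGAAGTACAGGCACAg
The shared run began 41 and 38 bases before the start in Ms4a4b and Ms4a4c, and 118 and 49 bases before it in Ms4a6b and Ms4a6c. Between genes of different pairs no shared run was longer than 9 bases. RefSeq windows were found for 6 of the 7 genes. The interferon-stimulated response element was searched on both strands as GAAA, 2 bases of any kind and GAAA, and as GGAA, 2 bases of any kind and GAAA, and the STAT site known as GAS as TTC, 3 bases of any kind and GAA. None of the 7 windows of these genes held any of them, against 2.977%, 2.301% and 7.02% of 32851 promoter windows of the same length. This says only that those letters are not in these 250 bases, and the starts of Ms4a4c and Ms4a6b in the annotation used for counting lie upstream of their RefSeq windows.

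Among cultured WT libraries the genes spanned a wide range of levels. Per kb of exon, the median over 33 WT libraries was 63.2 CPM for Ms4a6d, 41.2 for Ms4a7, 19.5 for Ms4a6c, 7.33 for Ms4a6b, 3.22 for Ms4a4a, 1.74 for Ms4a4c and 0.157 for Ms4a4b, and the ranges of each pair of neighbours in this order overlapped. In the 31 cKO libraries Ms4a4c moved up the order, at a median of 21.6 CPM per kb, between Ms4a6c at 34.6 and Ms4a6b at 20.8. These medians join experiments that were scaled separately. Reads of Ms4a6c may have been counted only in part, as 53.07% of its exon bases overlap BE692007, a transcript on the opposite strand. The 2 strand columns added together held 2.02 times the unstranded count of Ms4a6c (1.43 to 2.21 over libraries). Those columns had near equal totals over all genes in each experiment. They thus cannot assign the added reads to Ms4a6c or to BE692007, and 2.02 is an upper bound. Up to 8.185% of the 50-base stretches of a gene's exons (in Ms4a4c, mostly shared with Ms4a4b) also occur in another Ms4a gene, so a small share of reads could not be placed between such pairs.

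On day 3 of culture, when the labels call the cells BMDM progenitors, 4 of the 7 genes were higher in cKO cells: Ms4a4b, Ms4a4c, Ms4a6b and Ms4a6c. The background in this comparison was 5.2% of 15955 genes called higher. Called here means an adjusted p under 0.05 in edgeR's quasi-likelihood test with Benjamini-Hochberg adjustment over all genes tested. Ms4a4c was low in WT cells, at 0.749, 0.820 and 0.897 CPM, and stood at 67.1, 42.9 and 65.7 CPM in cKO cells. The groups were far apart, with a log2 fold change of 6.14 ± 1.2 (SE; adjusted p = 0.0048). Ms4a4b, known from T and NK cells, was at 1.29, 1.17 and 1.46 CPM in WT and at 3.52, 3.96 and 5.80 CPM in cKO (log2 fold change 1.76 ± 0.27, adjusted p = 0.000936). Its counts were low, but no cKO library came near a WT library. Ms4a6b measured 26.8, 18.6 and 14.3 CPM in WT and 99.1, 60.0 and 94.7 CPM in cKO (log2 fold change 2.09 ± 0.51, adjusted p = 0.0178). Ms4a6c measured 33.6, 29.1 and 20.2 CPM in WT and 76.0, 50.8 and 70.9 CPM in cKO (log2 fold change 1.25 ± 0.33, adjusted p = 0.0297). All 4 genes were above the WT range in every cKO library, against 18.3% of all genes. BE692007, which shares exon bases with Ms4a6c, was higher too (1.07 ± 0.24, adjusted p = 0.0125). Ms4a4a, Ms4a6d and Ms4a7 overlapped between WT and cKO and were not called. The call for Ms4a6b ended without WT replicate 2 or 3 or cKO replicate 1 or 3 (adjusted p up to 0.0764), and that for Ms4a6c without any 1 library but cKO replicate 2 (up to 0.114).

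By day 5 the calls were down to Ms4a4b and Ms4a4c, with 2.2% of genes called higher. Ms4a4c read 3.22, 0.773 and 0.722 CPM in WT and 186, 9.55 and 17.4 CPM in cKO. All cKO libraries were above all WT libraries, but replicate 1 of the cKO stood far above the other cKO libraries (log2 fold change 5.51 ± 1.12, adjusted p = 0.0147). The estimate was 3.13 without that library, where the call was lost (adjusted p = 0.0895), as it was without WT replicate 2 or 3 (adjusted p up to 0.0991). Ms4a4b gave 2.74, 2.65 and 2.58 CPM in WT and 7.04, 5.10 and 3.90 CPM in cKO (1.01 ± 0.25, adjusted p = 0.0408). This call ended when any 1 library but cKO replicate 3 was left out (adjusted p up to 0.25). Ms4a6b, Ms4a6c and Ms4a6d were not called on day 5 (1.76, 1.09 and 0.73 on the log2 scale, with 0.0753, 0.104 and 0.36 as their adjusted p), although their cKO libraries all lay above the WT libraries. That made 5 of 7 genes without overlap, against 15.4% of all genes. When only the 6 libraries of day 5 were fitted, 0 of the 7 genes were called, against 0.909% of all genes.

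On day 7 Ms4a4a alone, whose product associates with the fungal receptor Dectin-1, was called, and it was lower in cKO cells. Its 3 WT libraries read 17.2, 53.8 and 2.58 CPM and its cKO libraries 2.23, 1.29 and 0.262 CPM. The WT libraries ranged widely but did not overlap with the cKO libraries (log2 fold change -4.29 ± 0.88, adjusted p = 0.024), where 0.526% of all genes were called lower and 7.09% were lower without overlap. Its estimate was -2.99 without WT replicate 2, where the call ended (adjusted p = 0.091), as it did without any 1 cKO library (adjusted p up to 0.0916) and when only the day 7 libraries were fitted (adjusted p = 0.334). Ms4a4c was at 36.1, 10.6 and 3.05 CPM in WT and at 59.5, 29.8 and 39.97 CPM in cKO, so the genotypes overlapped (1.37, adjusted p = 0.467). Same-numbered libraries of this day deviated together, though no label pairs them. Within all 3 such pairs the cKO library was the higher for Ms4a4c. This held in 2 pairs for Ms4a4b, in 1 each for Ms4a6b, Ms4a6c, Ms4a6d and Ms4a7, and in 0 for Ms4a4a. Such a count over 3 pairs is a description and no test. Blocked on the replicate number, the log2 fold change of Ms4a4c was 1.83 without a call (adjusted p = 0.164). Ms4a6b (66.6 to 202 CPM in WT, 97.6 to 159 in cKO) and Ms4a6c (51.9 to 133 in WT, 70.6 to 113 in cKO) overlapped as well.

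**Figure D1:**
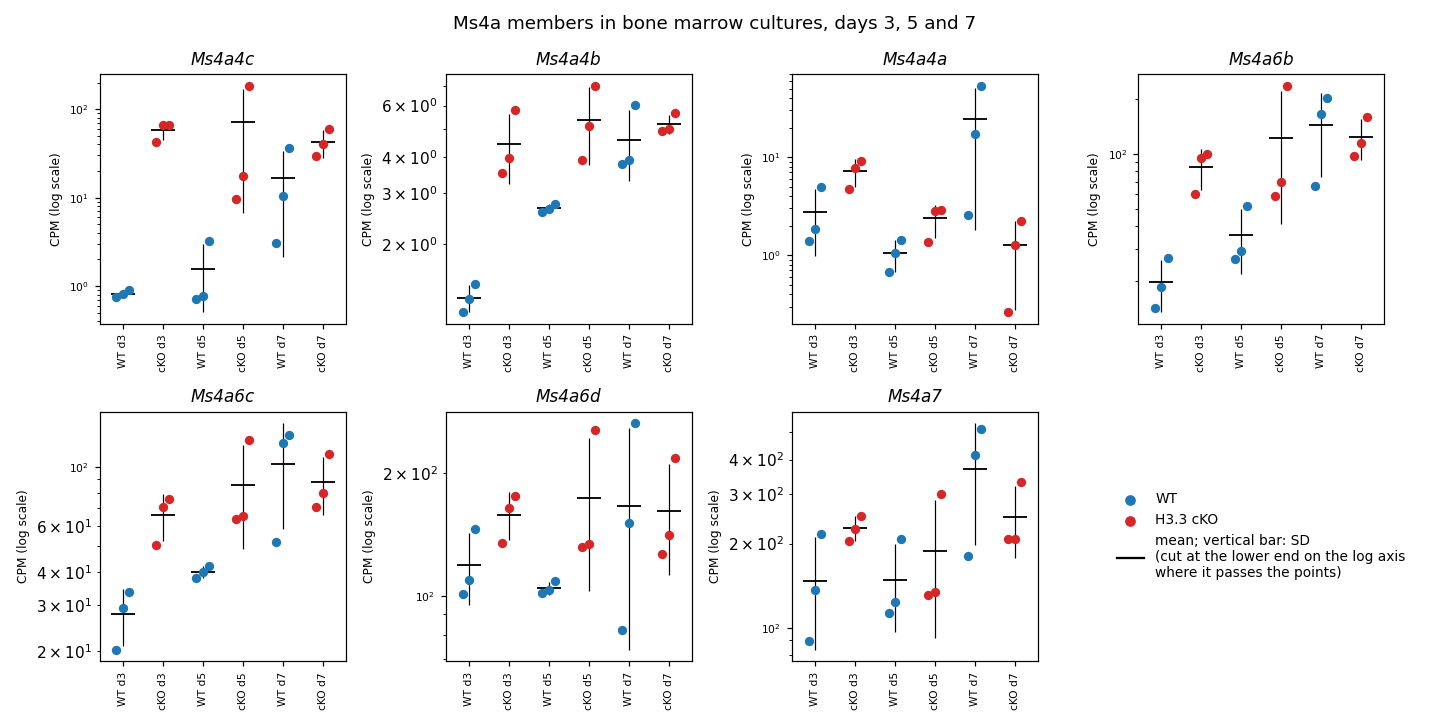
CPM (log axis) of the 7 genes on days 3, 5 and 7 of culture in WT (blue) and cKO (red) cells, where points are libraries, lines are means and bars are SDs, cut at the lower end. Ms4a4c separates most on day 3 (0.749 to 0.897 CPM in WT, 42.9 to 67.1 in cKO) and overlaps on day 7, whereas Ms4a4a separates on day 7 only.

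Within WT cells, 6 of the 7 genes rose from day 3 to day 7, against 12.3% of all genes called higher. The log2 fold changes were 4.32 ± 1.16 for Ms4a4c (adjusted p = 0.0155), 3.17 ± 0.82 for Ms4a4a (adjusted p = 0.0124), 2.86 ± 0.52 for Ms4a6b (adjusted p = 0.00166), 1.90 ± 0.34 for Ms4a6c (adjusted p = 0.00149), 1.79 ± 0.27 for Ms4a4b (adjusted p = 0.000437) and 1.33 ± 0.41 for Ms4a7 (adjusted p = 0.0303). Ms4a6d, whose product associates with the complement receptor VSIG4, was the exception at 101 to 146 CPM on day 3 and 82.5 to 266 CPM on day 7. The rise of Ms4a4a ended without WT day 7 replicate 2 (log2 fold change 1.86, adjusted p = 0.0968) or WT day 3 replicate 2 or 3, that of Ms4a4c without WT day 7 replicate 1 (3.0, adjusted p = 0.0602) or any 1 day 3 library, and that of Ms4a7 without WT day 7 replicate 1 or 2 or WT day 3 replicate 2 or 3 (adjusted p up to 0.13). When only the WT libraries of these days were fitted, the calls for Ms4a4a and Ms4a7 ended as well (adjusted p = 0.102 and 0.111). In cKO cells none of the 7 genes was called between day 3 and day 7 by edgeR, where 14% of all genes were, with 1 gene at an unadjusted p under 0.05 and 1 called by DESeq2. That gene was Ms4a4a, at 9.23, 7.72 and 4.75 CPM on day 3 and 2.23, 1.29 and 0.262 CPM on day 7 (log2 fold change -2.53, adjusted p = 0.0599). Blocked on the replicate number, it was called at -2.74 (adjusted p = 0.0109). Tested directly, the cKO effect on day 7 minus that on day 3 was called for none of the 7 by edgeR, against 0.0439% of all genes, with 5 at an unadjusted p under 0.05 and 4 called by DESeq2. Its estimates were -5.69 for Ms4a4a (adjusted p = 0.062), -4.76 for Ms4a4c (0.158), -2.31 for Ms4a6b (0.149), -1.57 for Ms4a4b (0.0827) and -1.48 for Ms4a6c (0.167). A difference in the cKO effect between these days was thus not shown at the threshold.

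Other gene groups moved with these values. Of 20 canonical interferon genes, 20 were higher in cKO cells on day 3, 19 on day 5 and 0 on day 7 by edgeR, with 3 at an unadjusted p under 0.05 on day 7 (median log2 fold changes 5.45, 3.69 and 0.59). In WT cells all 20 rose from day 3 to day 7, and 0 were called by edgeR in cKO cells, with 0 at an unadjusted p under 0.05. Granulocyte-monocyte progenitor markers, 5 genes that include Ms4a3, summed to 468 to 778 CPM in WT and 824 to 1224 CPM in cKO cells on day 3, and to 3.07 to 7.13 and 17.8 to 50.2 CPM on day 7. All 5 were called higher in cKO cells on day 5 and 4 on day 7. Monocyte markers, 5 genes that include Ly6c2 and Ccr2, summed to 253 to 531 CPM in WT and 848 to 1193 CPM in cKO cells on day 3 and to 171 to 229 and 358 to 924 CPM on day 5, with 2 of 5 called higher on each day. On day 7 their sums overlapped (92.5 to 286 and 185 to 266 CPM), again with 2 called. On day 3 the sums of B cell markers (13.4 to 14.3 CPM in WT, 27.3 to 57.3 in cKO), mast cell and basophil markers (10.4 to 18.01 and 27.1 to 34.03), dendritic cell markers (8.85 to 21.0 and 27.1 to 40.1) and T and NK cell markers (5.62 to 7.97 and 8.20 to 14.1) were apart too. In such bulk samples a change in the number of cells of a type cannot be told apart from a change in RNA per cell, and the part of these markers in the Ms4a values was not tested.

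IFNγ on day 8 raised Ms4a4c in both genotypes. Ms4a6b and Ms4a6c were called higher in both as well, but in cKO their log2 fold changes were 0.05 and 0.21 without treated replicate 2. In WT BMDMs Ms4a4c, Ms4a6b and Ms4a6c were the 3 of 7 genes that rose, against a background of 20% called higher. Ms4a4c went from 3.50, 4.45 and 2.53 CPM in untreated cells to 118, 122 and 95.8 CPM after 12 h, the largest rise of the 7 genes (log2 fold change 5.01 ± 0.43, adjusted p = 1.33e-05). Ms4a6b went from 45.8, 55.8 and 46.03 CPM to 148, 200 and 161 CPM (1.79 ± 0.36, adjusted p = 0.0028). Ms4a6c went from 56.2, 68.9 and 54.1 CPM to 150, 181 and 157 CPM (1.44 ± 0.30, adjusted p = 0.00349). For all 3 genes every treated library lay above every untreated library (31.5% of all genes), as did those of Ms4a6d (117, 135 and 124 CPM, then 264, 261 and 312 CPM), which did not reach the threshold (1.16, adjusted p = 0.0563). Ms4a4a was the exception in sign, at 1.86, 3.28 and 2.71 CPM untreated and 0.749, 2.08 and 0.481 CPM treated (-1.30, adjusted p = 0.0584). With the replicate block it was called (-1.36, adjusted p = 0.0471). Ms4a7, a marker of macrophages, overlapped at 193 to 325 CPM untreated and 203 to 254 CPM treated.

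In cKO BMDMs 4 of 7 genes rose with IFNγ, against 17.2% of all genes called higher, with 2 libraries a group. Ms4a4c read 12.96 and 12.3 CPM untreated and 140 and 468 CPM treated (log2 fold change 4.60 ± 0.49, adjusted p = 9.57e-05). The treated libraries differed among themselves, since the shallow replicate 1 held the lower value of Ms4a4c, Ms4a6b, Ms4a6c and Ms4a6d. Ms4a6b read 93.3 and 90.04 CPM untreated and 97.0 and 346 CPM treated (1.29 ± 0.43, adjusted p = 0.0406). Ms4a6c read 93.1 and 87.1 CPM untreated and 106 and 301 CPM treated (1.19 ± 0.36, adjusted p = 0.0291). Without treated replicate 2 the log2 fold changes were 0.05 for Ms4a6b and 0.21 for Ms4a6c, with both calls lost, and 3.44 for Ms4a4c, which stayed called. Without treated replicate 1 they were 1.94 for Ms4a6b and 5.24 for Ms4a4c, both called. Ms4a4b read 2.59 and 2.05 CPM untreated and 7.83 and 4.70 CPM treated (1.32 ± 0.42, adjusted p = 0.0332), and this call ended without treated replicate 1. The calls for these last 3 genes also ended without either untreated library (adjusted p up to 0.16 for Ms4a4b over the libraries left out). None of the 7 genes differed between cKO and WT in the response to IFNγ by edgeR, where 0% of all genes did, with 0 at an unadjusted p under 0.05 and 0 called by DESeq2. Leaving out cKO IFNγ replicate 2 brought 4 calls there, and leaving out each other library brought 0.

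**Figure D2:**
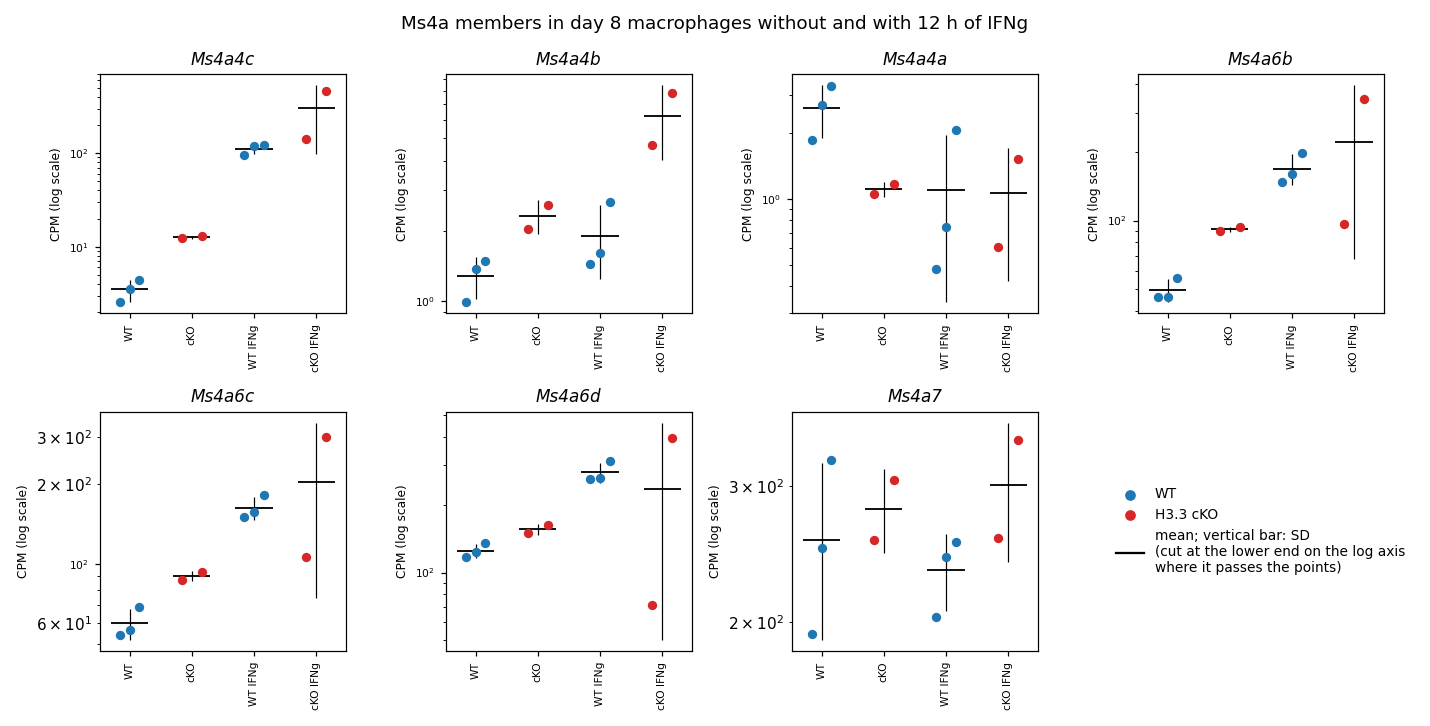
CPM (log axis) of the 7 genes in day 8 BMDMs without and with IFNγ for WT (blue) and cKO (red), with points for libraries, lines for means and bars for SDs, cut at the lower end. Ms4a4c rises in both genotypes (2.53 to 4.45 CPM against 95.8 to 122 in WT), and the 2 treated cKO libraries sit well apart for Ms4a4c, Ms4a6b, Ms4a6c and Ms4a6d.

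Without IFNγ on day 8, none of the 7 genes was called between cKO and WT BMDMs by edgeR, where 0.612% of all genes were, with 3 at an unadjusted p under 0.05 and 1 called by DESeq2. The libraries were nevertheless separated. Ms4a4b, Ms4a4c, Ms4a6b, Ms4a6c and Ms4a6d were higher in both cKO libraries than in any WT library (5 of 7, against 18% of all genes), and Ms4a4a was lower in both (1.05 and 1.17 CPM, against 13.9% of all genes). For Ms4a4c the log2 fold change was 1.86 (adjusted p = 0.15). After IFNγ only Ms4a4b was called in cKO against WT, at 1.60, 2.67 and 1.44 CPM in WT and 7.83 and 4.70 CPM in cKO (log2 fold change 1.62 ± 0.39, adjusted p = 0.0449, background 3.2% called higher). It was not called without cKO replicate 1 or WT replicate 1 or 3 (adjusted p up to 0.158). Of the canonical interferon genes, 11 of 20 were higher in cKO BMDMs without and 10 of 20 with IFNγ.

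In the antibody experiment Ms4a4c and Ms4a6b reached no more than 13.6 and 56.4 CPM in any library. With no antibody, Ms4a4c and Ms4a6c were higher in cKO BMDMs, 2 of 7 against 3.39% of all genes. Ms4a4c measured 1.19, 0.329 and 0.303 CPM in WT and 13.6, 5.28 and 1.54 CPM in cKO (log2 fold change 3.49 ± 0.67, adjusted p = 0.00671). Without cKO replicate 1 it was 2.48 and without WT replicate 1 it was 4.40, called in both cases. Ms4a6c measured 26.5, 8.09 and 9.15 CPM in WT and 51.4, 55.4 and 45.5 CPM in cKO (1.80 ± 0.44, adjusted p = 0.0231). WT replicate 1 stood above the other WT libraries for all 7 genes. Without it the log2 fold change of Ms4a6c was 2.56 (adjusted p = 0.00182), and without any other 1 library the call ended (adjusted p up to 0.122). Ms4a4b (log2 fold change 2.47, adjusted p = 0.0811), Ms4a6b (1.77, 0.0546), Ms4a6d (0.91, 0.132) and Ms4a7 (1.12, 0.0915) were not called, though none of them overlapped. In all, 6 of 7 genes lay above the WT range in every cKO library, against 20.2% of all genes, with Ms4a4a as the exception.

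With the control antibody Ms4a4c alone was called. It stood at 0.140, 0.226 and 0.183 CPM in WT and at 2.25, 4.33 and 3.32 CPM in cKO (log2 fold change 4.05 ± 0.82, adjusted p = 0.00899, background 2.88% called higher). The WT values rest on few reads, and the call ended without WT replicate 1 or 2 (adjusted p up to 0.0548). Ms4a6b measured 10.6, 9.45 and 11.2 CPM in WT and 37.6, 31.8 and 35.6 CPM in cKO, tight groups that still missed the threshold in the fit over all 18 libraries (1.75, adjusted p = 0.0848). When only these 6 libraries were fitted, 5 of the 7 genes were called, against 23% of all genes. With the IFNAR1 antibody none was called by edgeR, where 0.675% of all genes were, with 2 at an unadjusted p under 0.05 and 1 called by DESeq2. Ms4a4c was then at 0.346, 0.125 and 0.323 CPM in WT and at 2.66, 2.28 and 1.24 CPM in cKO, without overlap (4.19% of all genes; 2.88 ± 0.73, adjusted p = 0.106). In WT replicate 3 of this arm Ms4a6b, Ms4a6c and Ms4a6d stood at 23.9, 23.8 and 126 CPM, against at most 8.84, 8.84 and 47.8 CPM in the other WT libraries, and leaving out each library in turn gave at most 2 calls.

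Blocking IFNAR1 was compared with the control antibody within each genotype. None of the 7 genes was called in WT or cKO BMDMs by edgeR, against 9.89% and 4.03% of all genes, with 0 at an unadjusted p under 0.05 and 0 called by DESeq2 in both. In cKO cells Ms4a6b read 37.6, 31.8 and 35.6 CPM with the control antibody and 11.7, 29.5 and 29.1 CPM with the IFNAR1 antibody (-0.59, adjusted p = 0.563). Ms4a6c read 46.2, 53.4 and 38.9 CPM and 15.96, 33.6 and 30.9 CPM (-0.78, adjusted p = 0.337). For these 2 genes the treated libraries lay below the control libraries (14.5% of all genes), with replicate 1 lowest. None of the 7 differed between genotypes in the response to the antibody by edgeR, where 0% of all genes did, with 0 at an unadjusted p under 0.05 and 0 called by DESeq2. Control antibody against none also gave no call by edgeR in either genotype, where 8.9% of all genes were called in WT and 1.46% in cKO cells, with 1 at an unadjusted p under 0.05 in WT, 0 in cKO and 0 by DESeq2 in both. Of the 20 interferon genes, the IFNAR1 antibody lowered 2 in WT and 7 in cKO cells relative to the control antibody and raised 1 in each.

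**Figure D3:**
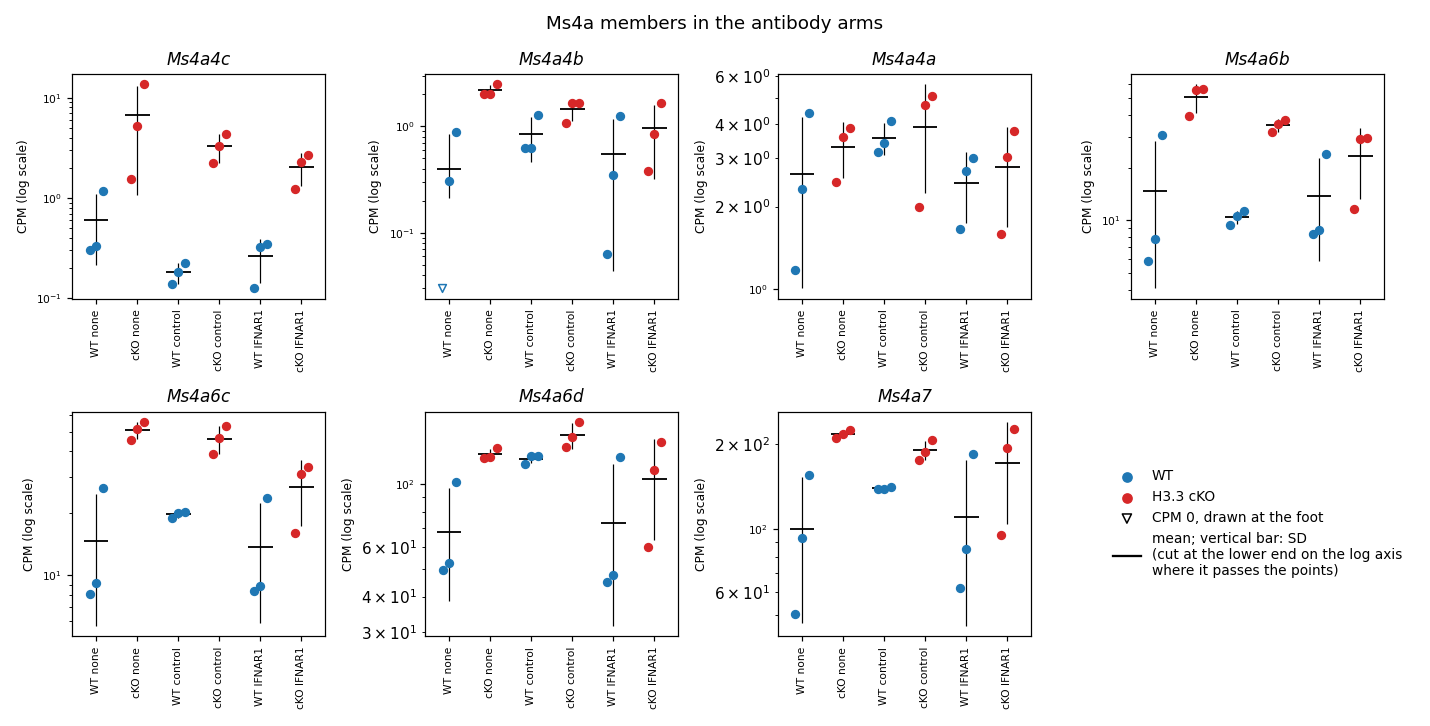
CPM (log axis) of the 7 genes with no antibody, control antibody and IFNAR1 antibody in WT (blue) and cKO (red) BMDMs, with points for libraries, lines for means, bars for SDs cut at the lower end, and an open triangle for the WT library without reads of Ms4a4b. Ms4a4c of the cKO lies above that of the WT in all 3 arms, at 0.125 to 1.19 CPM in WT and 1.24 to 13.6 in cKO.

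In the 3 sets of BMDMs that accompanied the double KOs, Ms4a4c was called higher in cKO cells each time. It measured 12.99, 3.69 and 7.29 CPM in WT and 72.2, 59.5 and 47.7 CPM in cKO BMDMs of set 1 (log2 fold change 2.93 ± 0.36, adjusted p = 1.06e-06). In set 2 it measured 2.42, 4.23 and 3.08 CPM in WT and 37.8, 64.9 and 37.5 CPM in cKO (3.84 ± 0.38, adjusted p = 6.43e-08). In set 3 it measured 12.5, 4.83 and 9.68 CPM in WT and 51.8, 54.1 and 51.9 CPM in cKO (2.54 ± 0.35, adjusted p = 4.76e-06). The groups were apart in every set, as were 21.3%, 20% and 20.8% of all genes in this direction in sets 1, 2 and 3, and each of these calls held when any 1 library was left out. Many genes were called in these sets, with 18%, 9.74% and 16.9% of all genes higher and 16.7%, 11.3% and 18% lower in cKO in sets 1, 2 and 3.

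Ms4a4a was lower in cKO BMDMs in sets 1 and 3. Its WT libraries of set 1 held 34.1, 3.91 and 10.5 CPM and its cKO libraries 2.65, 1.63 and 1.69 CPM (-3.01 ± 0.71, adjusted p = 0.00184). In set 3 they held 49.1, 3.23 and 8.46 CPM and 2.59, 1.28 and 1.42 CPM (-3.54 ± 0.72, adjusted p = 0.000413). WT replicate 1 was the highest in both sets, and without it the log2 fold changes were -1.83 in set 1 (adjusted p = 0.0401) and -1.73 in set 3 (adjusted p = 0.023). In set 2 the WT level was lower, at 1.97, 2.16 and 1.82 CPM, and the cKO libraries at 0.378, 1.02 and 0.789 CPM lay below it without a call (-1.46, adjusted p = 0.227).

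Set 2 differed from the others in Ms4a4b, Ms4a6b and Ms4a6c. In set 2 these were called higher in cKO BMDMs, by 1.90 ± 0.27, 1.73 ± 0.21 and 1.47 ± 0.18 on the log2 scale (adjusted p = 8.98e-06, 1.14e-06 and 1.42e-06), and none was called in sets 1 and 3. Ms4a6b was at 27.3, 32.9 and 23.8 CPM in WT BMDMs of set 2, against 159, 84.7 and 117 CPM in set 1 and 150, 73.0 and 105 CPM in set 3. The WT level was thus the part that differed most, since cKO BMDMs had 89.0, 108 and 81.9 CPM in set 2, 136, 150 and 131 CPM in set 1 and 109, 121 and 125 CPM in set 3. Ms4a6c behaved alike, at 25.3, 25.8 and 23.2 CPM in WT BMDMs of set 2 and 59.7 to 107 and 53.7 to 104 CPM in sets 1 and 3. Other markers in set 2 moved too. The 6 dendritic cell markers summed to 72.3 to 103 CPM in its WT libraries, almost all of it Itgax (70.8 to 101 CPM), against 11.7 to 20.7 CPM in WT libraries of sets 1 and 3 and 15.9 to 18.7 CPM in cKO libraries of set 2. Monocyte markers summed to 78.0 to 120 CPM in WT and 358 to 415 CPM in cKO BMDMs of set 2. Their part in the Ms4a values was not tested. BE692007 was called higher in set 2 as well (1.29 ± 0.20, adjusted p = 3.26e-05). The difference in the cKO effect was tested between sets, a test chosen after the data were seen. Set 2 minus set 1 was 1.65 ± 0.37 for Ms4a4b (adjusted p = 0.00248), 1.52 ± 0.29 for Ms4a6b (adjusted p = 0.000626) and 1.07 ± 0.25 for Ms4a6c (adjusted p = 0.0036), 3 of 7 genes against 8.42% of all genes. Set 2 minus set 3 gave 1.44, 1.62 and 1.15 for the same 3 genes (9.04% of all genes). With 1 strand column alone the value for Ms4a4b was 0.95 and its call ended (adjusted p = 0.155). That column keeps 3130 of the 6313 reads of this low-count gene over all libraries. Between sets 3 and 1, none of the 7 differed by edgeR, nor did any of all genes (0%), with 0 at an unadjusted p under 0.05 and 0 called by DESeq2. Whether the sets differ in culture days or date is not given, and set and such differences cannot be told apart.

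**Figure D4:**
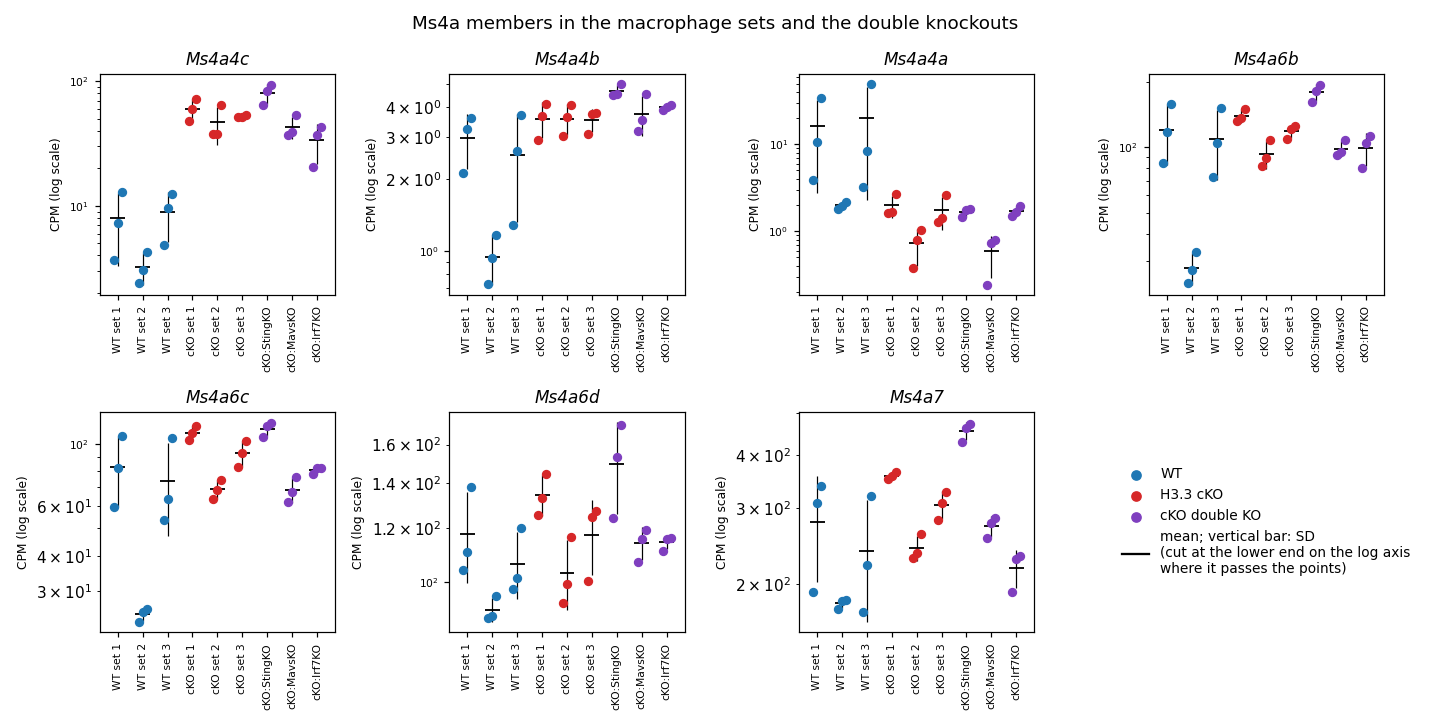
CPM (log axis) of the 7 genes in the 3 sets of WT (blue) and cKO (red) BMDMs and in the double KOs (purple), with points for libraries, lines for means and bars for SDs, cut at the lower end. Ms4a4c is higher in cKO in each set, and the WT level of Ms4a6b is 23.8 to 32.9 CPM in set 2 against 84.7 to 159 in set 1.

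The double KOs were compared with the mean of the 3 sets, because the labels do not tie a numbered set to a double KO. The counts of set 3 and cKO:Irf7KO listed 54146 genes, whereas those of sets 1 and 2, cKO:StingKO and cKO:MavsKO listed 55536. By its gene list set 3 is thus the closer reference for cKO:Irf7KO, and results with it are given below. In cKO:StingKO BMDMs, which also lack the DNA-sensing adaptor STING, none of the genes was called lower than in cKO BMDMs. Ms4a6b, Ms4a6d and Ms4a7 were higher, 3 of 7 against 18.9% of all genes. Ms4a6b measured 161, 193 and 181 CPM (range of the 9 cKO libraries 81.9 to 150, log2 fold change 0.63 ± 0.16, adjusted p = 0.0031). Ms4a7 measured 429, 462 and 473 CPM (range 230 to 365, 0.61 ± 0.13, adjusted p = 0.00076). Ms4a6d measured 124, 171 and 153 CPM (range 92.8 to 145, 0.35 ± 0.09, adjusted p = 0.0061), a call that ended without cKO:StingKO replicate 2 (0.24, adjusted p = 0.0974). With set 1 alone as the reference, 0 of the 7 genes were called. Against WT BMDMs all 7 genes were called in cKO:StingKO (background 40.3% in either direction), led by Ms4a4c (64.7, 92.9 and 83.9 CPM, 3.71 ± 0.25, adjusted p = 2.48e-11) and with Ms4a4a lower (1.77, 1.80 and 1.44 CPM, -2.37 ± 0.66, adjusted p = 0.00534). With set 2 alone as the WT reference the log2 fold change of Ms4a4a was -0.25 and its call ended (adjusted p = 0.82). With set 1 alone the calls for Ms4a4b (0.64, adjusted p = 0.0536) and Ms4a6c (0.45, adjusted p = 0.0516) ended.

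In cKO:MavsKO BMDMs, made without the adaptor of RNA sensing, none of the 7 genes was called against cKO BMDMs by edgeR, where 8.79% of all genes were, with 1 at an unadjusted p under 0.05 (Ms4a6c, -0.37) and 0 called by DESeq2. Ms4a4c stood at 39.3, 53.3 and 36.8 CPM, within the range of the cKO sets at 37.5 to 72.2. In cKO:Irf7KO BMDMs, from mice labelled as knocked out for the transcription factor IRF7, Ms4a7 alone was called and was lower, at 192, 229 and 232 CPM (-0.45 ± 0.14, adjusted p = 0.0362, background 5.5% called lower). That call ended with set 2 or set 3 as the reference and without any 1 of 7 libraries, namely any of the 3 cKO:Irf7KO libraries, replicate 2 of set 1, 2 or 3, or replicate 3 of set 3 (adjusted p up to 0.208). Ms4a4c read 20.6, 43.4 and 37.0 CPM in cKO:Irf7KO and was not called against cKO BMDMs (-0.65, adjusted p = 0.142). Against WT BMDMs, which serve as the same reference for each double KO, 5 of 7 genes were called in cKO:MavsKO and 5 of 7 in cKO:Irf7KO, where 42.6% and 31.5% of all genes were called. These were Ms4a4c (2.81 ± 0.25 and 2.45 ± 0.26), Ms4a4b (0.94 ± 0.20 and 1.04 ± 0.20), Ms4a6b (0.46 ± 0.16 and 0.47 ± 0.16), Ms4a6c (0.36 ± 0.14 and 0.60 ± 0.14) and, in the other direction, Ms4a4a (-3.85 ± 0.75 and -2.35 ± 0.65). With set 1 or set 3 as the WT reference, only Ms4a4c and Ms4a4a were called in each, and Ms4a6b turned in sign (-0.28 and -0.15 in cKO:MavsKO, -0.28 and -0.14 in cKO:Irf7KO), as did Ms4a6c in cKO:MavsKO (-0.27 and -0.11) and, with set 1, in cKO:Irf7KO. With set 2 as the WT reference, Ms4a4a was at -1.73 in cKO:MavsKO (adjusted p = 0.157) and at -0.22 in cKO:Irf7KO (adjusted p = 0.851), and both calls ended. With that reference Ms4a6b and Ms4a6c were at 1.81 and 1.47 in cKO:MavsKO and at 1.82 and 1.70 in cKO:Irf7KO. The values against the mean of the sets thus average unlike values. The call for Ms4a6c in cKO:MavsKO held in 4 of 12 fits that left out 1 library, and ended without WT replicate 2 or 3 of set 1, 1 or 3 of set 2 or 2 or 3 of set 3 and without cKO:MavsKO replicate 2 or 3 (adjusted p up to 0.203). That for Ms4a6b ended without cKO:MavsKO replicate 2 (adjusted p = 0.119) and without cKO:Irf7KO replicate 2 or 3 (adjusted p up to 0.179).

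Peritoneal macrophages were isolated from the mouse with a kit, per the study's methods, and were not cultured as BMDMs. Ms4a7 was almost absent, at 0.561, 0.213 and 0.774 CPM in WT and 0.727, 0.632 and 0 CPM in cKO, although the cultured libraries of WT and cKO held 50.3 to 513 CPM. Ms4a8a, another gene of the wider cluster, at 282 to 486 CPM in WT and 189 to 525 CPM in cKO peritoneal macrophages, passed the filter on low counts in this experiment alone. Ms4a6d, at 146, 151 and 133 CPM in WT, and Ms4a4c, at 0.449, 0.496 and 0.637 CPM, lay within the ranges of cultured WT libraries (45.0 to 312 and 0.125 to 122 CPM), as did Ms4a4a and Ms4a6c. Ms4a6b, at 2.98 to 11.7 CPM in WT, reached below the cultured minimum of 5.83 CPM. These levels come from separately scaled experiments, and no test was made between them. Between cKO and WT none of the 7 genes was called by edgeR, where 0.971% of all genes were, with 1 at an unadjusted p under 0.05 and 1 called by DESeq2. That gene was Ms4a4c, at 3.42, 1.58 and 1.30 CPM in cKO, above every WT library (1.99 ± 0.49, adjusted p = 0.16, against 8.47% of all genes apart in this direction). Ms4a4b reached its highest levels here, at 17.8, 6.24 and 6.69 CPM in WT and 38.1, 12.4 and 15.8 CPM in cKO. These libraries passed the rule used here for pairing by number, which does not show that they are paired. Blocked on the replicate number, the log2 fold change of Ms4a4b was 1.11 without a call (adjusted p = 0.0689). The 10 markers of T and NK cells summed to 14.7 to 63.3 CPM in these WT and 20.2 to 90.4 CPM in these cKO libraries, with none at 0, and replicate 1 of each genotype was highest in both measures. In the time course the same sum ran from 1.43 to 14.1 CPM, with 2 to 7 of the 10 at 0. The study's methods name the isolation kit without its steps, and the part of such cells in the peritoneal values of Ms4a4b was not tested. Monocyte markers summed to 202 to 277 CPM in WT and 561 to 928 CPM in cKO peritoneal libraries.

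Over the 12 comparisons of cKO with WT, Ms4a4c was higher in cKO in 12, called in 7 and without overlap in 11, with log2 fold changes from 1.37 to 6.14. Ms4a4b was higher in 12 and called in 4, Ms4a6b higher in 11 and called in 2, and Ms4a6c higher in 10 and called in 3. Ms4a6d and Ms4a7 were higher in 9 and 10 and called in none. Ms4a4a was the only one called lower, in 3 comparisons, and was higher in 6 without a call. The comparisons cannot be taken as independent of each other, as the likeness of sets 1 and 3 shows.

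**Figure D5:**
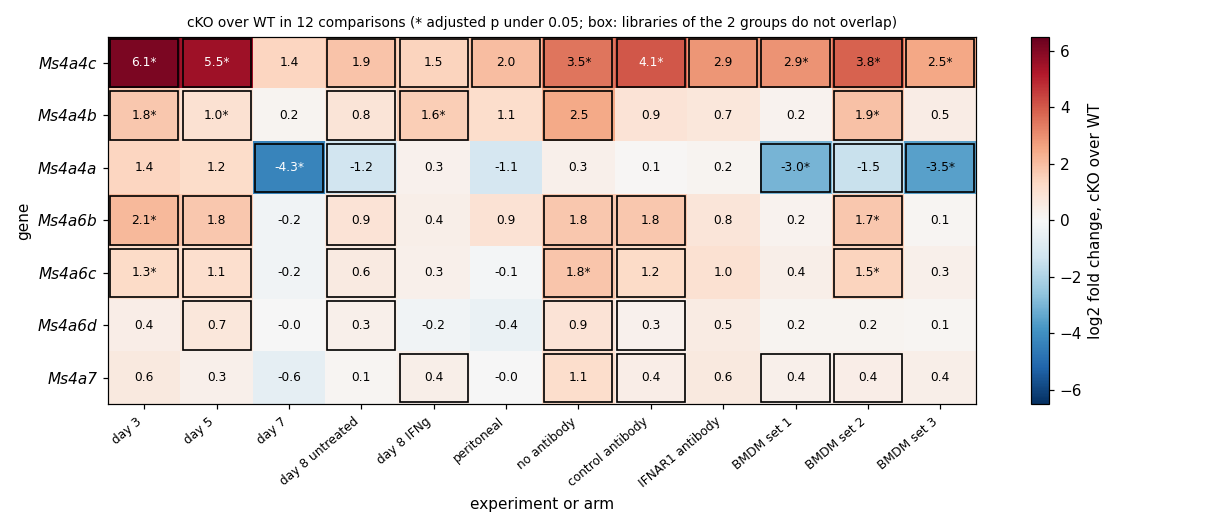
Log2 fold change of cKO over WT for the 7 genes (rows) in the 12 comparisons (columns), with higher in cKO in red and lower in blue, a star for an adjusted p under 0.05 and a box where the libraries of the 2 groups do not overlap. Ms4a4c is above 0 in all 12 comparisons and has a star in 7, whereas Ms4a4a is below 0 in the 3 where it has a star.

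The shape of each gene over the 27 groups was set beside all other genes that passed the filter in all 5 experiments (11170 genes, group means of log2 CPM centred on each experiment). The points share libraries and experiments, so the correlations are descriptions. Ms4a4c was nearest to Usp18 (r = 0.966), Ly6e (0.965) and Phf11a (0.963). Usp18 and Ly6e are known interferon-induced genes. Ms4a6b was nearest to its neighbour Ms4a6c (0.948), then Trim12a (0.924) and Oas1c (0.920), and Ms4a6c to Ms4a6b, Fgd2 (0.926) and Gm8369 (0.908). Ms4a4b was nearest to Nxpe4 (0.883), Ms4a6c (0.877) and Gm8369 (0.872). Ms4a6d was nearest to Rab8a (0.939), Ppp1r11 (0.890) and Tmem51 (0.863), and Ms4a7 to Sash3 (0.832), Tbc1d25 (0.813) and Ms4a6c (0.803). Ms4a4a stood by itself in the cluster, with Frat1 (0.863), Cnpy2 (0.833) and Fam213a (0.824) nearest and correlations of -0.19 to 0.24 with the other 6 genes.

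Receptors and adaptors that are known partners of MS4A proteins or belong to the same Fc and lectin receptor pathways were followed beside the Ms4a genes. Of 9 such genes (Clec7a, Trem2, Tyrobp, Vsig4, Fcer1g, Fcgr1, Fcgr2b, Fcgr3 and Fcgr4), 1 was called higher in cKO cells on day 3 and 1 on day 5, in both cases Fcgr4 (log2 fold changes 2.0 and 2.24). On day 7 the count was 0 by edgeR, with 2 at an unadjusted p under 0.05. The share of all genes called higher on these days was 5.2%, 2.2% and 0.871%. IFNγ raised 5 of 8 tested in WT BMDMs (20% of all genes called higher), among them Clec7a, the gene of Dectin-1 (1.62). In cKO BMDMs it raised 2 (17.2% of all genes), with 2 libraries a group and the shallow replicate 1 among them. The difference between these counts was not tested. In sets 1 and 3, which cannot be taken as independent of each other, Clec7a was lower (-1.53 and -1.56), as were 16.7% and 18% of all genes. Trem2 was called in set 3 (0.41) but not in set 1. Ms4a4a was lower in these sets as well, but with IFNγ in WT its estimate was -1.30 where Clec7a rose. Whether the 2 genes move together was not tested. In cKO peritoneal macrophages Vsig4 was lower (-1.88) and Trem2 higher (2.49). Of 12 genes of alternative macrophage activation, the state in which Ms4a4a is known to be used, 6 of 10 tested were lower in cKO BMDMs in set 1, 5 in set 2 and 6 in set 3. Among all genes 16.7%, 11.3% and 18% were called lower there. On each of days 3, 5 and 7, 2 of 9 were lower, with Cbr2 lower on each of those days (-1.68, -2.24 and -3.52). The share of all genes called in either direction on these days was 7.73%, 2.83% and 1.4%.

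Of the other 12 Ms4a genes, 6 passed the filter on low counts in any experiment. Ms4a3, a gene of granulocyte-monocyte progenitors, fell from day 3 to day 7 in WT (-6.81 ± 0.62, adjusted p = 9.76e-06) and cKO cells (-4.57 ± 0.50, adjusted p = 3.89e-05), opposite to the myeloid genes in WT. Ms4a1 and Ms4a2 fell in both genotypes as well, and Ms4a14 rose in WT cells (2.07 ± 0.54, adjusted p = 0.0133). Ms4a3 was higher in cKO cells on day 5 (1.96 ± 0.46, adjusted p = 0.0303) and in all 3 sets (2.73, 1.61 and 2.88), and Ms4a1 on day 3 (1.89) and in sets 1 and 3 (3.73 and 3.23). Both were low in the sets, at no more than 4.02 CPM for Ms4a3 and 1.63 CPM for Ms4a1. Ms4a14 was called higher in cKO BMDMs in sets 1 and 2 (0.69 and 0.76), and Ms4a2 (4.43) and Ms4a4d (1.68) in set 2 alone. Against the cKO sets, Ms4a3 was lower in cKO:MavsKO (-1.20) and cKO:Irf7KO (-1.25), where Ms4a1 (-1.78) and Ms4a2 (-2.60) were lower as well. In cKO:StingKO BMDMs Ms4a2 was lower (-1.75) and Ms4a4d (0.99) and Ms4a14 (0.56) were higher.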

How the data were processed

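RNA was sequenced from cultured bone marrow cells and from peritoneal macrophages, and 81 tables of counts, 1 per library, were used. Per the labels and the study's methods, the authors trimmed paired reads with Cutadapt and aligned them to mm10 with STAR, whose deposited tables give unnormalized counts per gene. The unstranded column was used, in which reads that overlap genes on both strands are left out. Versions of these tools are not given in the sources used here. The labels give 1 library kit throughout, whereas the methods give another for peritoneal macrophages. Reads were kept per Ensembl gene by ID without its version, and no sample column was left unused.

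Genotype, day, treatment and replicate came from the labels, and 79 of 81 libraries could be placed. Each of the 5 experiments was fitted alone with edgeR 4.0.16 (R 4.3.3): TMM factors, filterByExpr with a minimum count of 10 and a minimum total of 15, 1 term per group, and two-sided quasi-likelihood F tests with Benjamini-Hochberg adjustment over all genes tested at a threshold of 0.05. Standard errors (SE) are the size of the estimate over the square root of F. Several groups on 1 side of a contrast were averaged. CPM were TMM-scaled counts per 1000000, and n is 3 libraries a group except for 2 in each cKO group of day 8. Depth was 3614967 to 45581528 counts on genes, and single-library values carry counting error beside the spread between libraries.

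The genes named are the 7 members in every comparison, other Ms4a genes that were called, fixed gene lists by count, for each member the 3 genes with the highest Pearson r over group means (log2 CPM, prior count 2), and the targeted genes. Members and lists were chosen with earlier results of these data known. Same-numbered libraries, which no label pairs, were taken as paired where every pair's deviations from its group mean correlated above 0.1. Different-numbered libraries were not used in this rule, and those of set 2 and another set reached 0.29. Passing it thus does not show that libraries are paired. This held for cKO against WT on day 3 (lowest r 0.127) and day 7 (0.149), day 7 against day 3 in cKO (0.137), IFNγ in WT (0.337), peritoneal macrophages (0.144) and control against no antibody in WT (0.140). The alternatives tried were 1 of the 2 strand columns alone, no filter on low counts, RLE normalization, DESeq2 1.42.0, a replicate block, fitting only the groups compared, other placements of the 2 unplaced libraries, each set as the reference, and leaving out each library. The 2 strand columns had near equal totals, so that alternative mainly lowers the counts. The scripts were tested on simulated counts. Promoter windows came from RefSeq (GRCm38.p6) and gene coordinates from the GRCm38 annotation.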

Additional observations from a re-analysis of the deposited data

Results flagged for a closer look

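The cKO effect on 3 genes differed between sets of BMDMs, by a test of the difference itself that was chosen after the data were seen (edgeR, adjusted over all genes). Set 2 minus set 1 was 1.65 on the log2 scale for Ms4a4b (adjusted p = 0.00248), 1.52 for Ms4a6b (adjusted p = 0.000626) and 1.07 for Ms4a6c (adjusted p = 0.0036). Set 2 minus set 3 was 1.44 (adjusted p = 0.00702), 1.62 (adjusted p = 0.000309) and 1.15 (adjusted p = 0.00198) for the same genes. With 1 strand column alone the last test gave 0.95 for Ms4a4b (adjusted p = 0.155), which ends that call. That column keeps 3130 of the 6313 reads of this gene over all libraries. In both tests the cKO effect was larger in set 2, where all 3 cKO libraries lay above all 3 WT libraries for each gene. Both tests use set 2, and sets 1 and 3 cannot be taken as independent, so the second test is no separate check on the first.

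In the 2 cKO libraries of day 8 that entered no group, most of the 7 genes were above every untreated WT library. The exceptions were Ms4a4a in both (0.733 and 1.18 CPM, below the WT range of 1.86 to 3.28) and Ms4a7 in the library titled as IFNγ-treated (265 CPM, within 193 to 325). The library titled as IFNγ-treated, whose library name lacks IFNγ, had 2.36 CPM of Ms4a4b (WT untreated 0.985 to 1.48), 10.1 CPM of Ms4a4c (2.53 to 4.45), 78.1 CPM of Ms4a6b (45.8 to 55.8), 83.5 CPM of Ms4a6c (54.1 to 68.9) and 144 CPM of Ms4a6d (117 to 135). The library titled as untreated, whose library name has IFNγ, had 4.49 CPM of Ms4a4b, 408 CPM of Ms4a4c, 338 CPM of Ms4a6b, 269 CPM of Ms4a6c, 398 CPM of Ms4a6d and 329 CPM of Ms4a7 (WT untreated 193 to 325). Ms4a4c thus differed widely between these libraries. No condition was assigned to either from these values.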

How the results depend on the processing

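Counts of the 7 genes called moved by over 1.5 times in 104 of 477 refits, in 27 of 32 comparisons, 46 of them by leaving out a library. Of 1630 refitted log2 fold changes of the genes described, 1410 kept direction and side of the threshold, 97 passed it newly, 116 lost it and 7 changed sign. The sign changed for Ms4a6b and Ms4a6c in cKO:MavsKO against WT sets (set 1 reference -0.28 and -0.27, set 3 reference -0.15 and -0.11). It also changed in cKO:Irf7KO against WT sets (Ms4a6b -0.28 and -0.14, Ms4a6c -0.034 with set 1). With set 2 alone the values of Ms4a6b and Ms4a6c were 1.81 and 1.47 in cKO:MavsKO and 1.82 and 1.70 in cKO:Irf7KO. The sign thus depended on which WT set was the reference. Why the sets differ was not tested. Among the remaining values of the 7 genes, which had no call, an unadjusted p of 0.05 or more and overlapping libraries, the sign changed in 121 of 1702 refits (61 of 115 results), 87 of them by leaving out a library. With DESeq2 the counts were 4 on day 5, 1 for day 7 against day 3 in cKO, 4 for the cKO effect on day 7 minus day 3, 1 on untreated day 8, 2 after IFNγ, 1 in peritoneal macrophages, and 5, 2 and 1 with no, control and IFNAR1 antibody. Without the filter on low counts they were 4, 1, 5, 2, 2, 2, 5, 2 and 1 in the same order, 5 for IFNγ in WT, 4 in sets 1 and 3, 5, 3 and 2 for cKO:StingKO, cKO:MavsKO and cKO:Irf7KO against cKO sets, and 5 for each difference of set 2. With a strand column they were 1 on day 5 and 2 for IFNγ in cKO, and Ms4a4b lost its call for set 2 minus set 3. With only the groups compared they were 0 on day 5 and day 7, 1 for day 7 against day 3 in cKO, 3 on untreated day 8, 5 and 1 for IFNγ in WT and cKO, 0 after IFNγ, 5 with control antibody, 1 for control against no antibody in cKO, 6 and 2 for cKO:StingKO and cKO:MavsKO against cKO sets, and 3 for cKO:MavsKO and for cKO:Irf7KO against WT sets. With the unplaced libraries placed by library name, 5 genes were called for IFNγ in WT and 2 for cKO after IFNγ, and placed by title, 0 in these and 0 for IFNγ in cKO. With set 1 as the reference, 0 and 1 were called for cKO:StingKO and cKO:MavsKO against cKO sets and 2 for cKO:MavsKO and for cKO:Irf7KO against WT sets. With set 2 or 3, 0 were called for cKO:Irf7KO against cKO sets, and with set 3, 2 for cKO:MavsKO and for cKO:Irf7KO against WT sets.

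With the replicate block, where libraries passed the rule for pairing, the calls that changed were those of Ms4a4a given above, with 1 gene called for day 7 against day 3 in cKO. Elsewhere libraries share only a number: the block then called 1 gene for the cKO effect on day 7 minus day 3, 2 for IFNγ in cKO and 0 for cKO against WT after IFNγ, and on day 5 it called Ms4a6b in place of Ms4a4b (adjusted p = 0.0266 and 0.0506).

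Leaving out 1 library at a time gave 2 to 4 calls on day 3, 0 to 2 on day 5, 0 to 1 on day 7, 3 to 6 for day 7 against day 3 in WT and 0 to 1 in cKO, 0 to 2 for the cKO effect on day 7 minus day 3, 1 to 4 for IFNγ in cKO, 0 to 4 for cKO against WT after IFNγ and for the difference in the IFNγ response, 1 to 6 with no antibody, 0 to 1 with control antibody, 0 to 2 with IFNAR1 antibody, 0 to 2 for IFNAR1 against control antibody and 0 to 1 for control against no antibody in WT, 2 to 5 in set 1 and set 3, 2 to 5 for cKO:StingKO and 0 to 1 for cKO:Irf7KO against cKO sets, and 3 to 6 for cKO:MavsKO against WT sets. Low counts limit Ms4a4a, Ms4a4b and Ms4a4c in WT libraries most.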
